A study of Mus musculus with 21 samples.

Results

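The Rtl1-antisense miR-127 cluster is a group of miRNA hairpins on mouse chromosome 12 that lie on the strand opposite the coding sequence of the imprinted gene *Rtl1*. Its members were taken by name and position, as both arms of miR-127, miR-136, miR-431, miR-433 and miR-434. These 10 mature miRNAs were among 1909 names listed for pituitaries of virgin females, of which 1388 had a count in at least 1 library, and among 1841 names listed for pituitaries of older females from a breeding trial, of which 743 had a count. Small RNAs were sequenced from pituitaries of mice in which the sites for the miR-200a and miR-200b families in the 3′ UTR of *Zeb1* carried point mutations, a design that asks what follows when this transcript escapes those miRNAs. *Zeb1* encodes a zinc-finger repressor of epithelial genes. The 21 libraries came from female mice on a C57BL/6J background. Virgin females were 8–12 weeks old, with 3 libraries from wild-type mice (WT, numbered 1, 2 and 4), 4 from heterozygous knock-in mice (*Zeb1 200H*) and 4 from homozygous knock-in mice (*Zeb1 200M*). The older cohort, taken after the breeding trial, was 28–36 weeks old, with 4 WT libraries, 3 *Zeb1 200H* libraries (numbered 1, 3 and 4) and 3 *Zeb1 200M* libraries (numbered 1 to 3). WT mice carried no mutant allele, and the labels name no treatment. The mutant allele is present in every tissue from the germ line on, whole pituitaries hold many cell types, and each cohort drew on more than 1 knock-in clone, with the clone behind each library not given in the labels. Replicates were separate mice, as stated in the study's methods.

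Dicer cuts each miRNA hairpin into a pair of arms, of which usually the more abundant is the guide that is kept in Argonaute. The hairpins of this cluster are processed from transcripts of the maternal chromosome in the *Dlk1–Dio3* imprinted domain, which also holds the noncoding RNAs *Meg3*, *Rian* and *Mirg*, whereas *Rtl1*, a retrotransposon-derived gene needed in the placenta, is expressed from the paternal chromosome. Being fully complementary to the *Rtl1* mRNA, these miRNAs can direct its cleavage, and the domain is known in the pituitary because *MEG3* is silenced in human nonfunctioning adenomas.

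Depth differed between the cohorts. Total miRNA counts ran from 3816917 to 10806313 per virgin library and from 60037 to 191650 per breeding-trial library, and levels are given as CPM, counts scaled to the same standard total of miRNA counts in every library (plain CPM). Levels were not tested between cohorts, because the dictionary, the number of matched bases and the library preparation differed with the cohort. A single library stood apart. Virgin WT replicate 1 had the lowest total of its cohort, 836 miRNAs with a count against 1040–1079 in the other 10 virgin libraries, and 36.9% of its counts in its 3 most abundant miRNAs against 24.5–28.1%. Virgin comparisons with WT are therefore given with and without it.

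The 5 hairpins lie on the plus strand of chromosome 12 within 4942 bases, chr12:109590447-109595388 (GRCm38, GENCODE M21), in the order *Mir431* (chr12:109590447-109590537), *Mir433* (chr12:109591715-109591838), *Mir127* (chr12:109592846-109592915), *Mir434* (chr12:109594506-109594599) and *Mir136* (chr12:109595327-109595388). All of them sit opposite exon 2 of *Rtl1* (chr12:109589193-109595488, minus strand), inside its coding sequence of 5232 bases. The end of *Meg3* lies 18721 bases before *Mir431*, and *Rian* starts 8552 bases after *Mir136*. A further annotated hairpin on the plus strand, *Mir432* (chr12:109594956-109595030), lies between *Mir434* and *Mir136*. On the minus strand, *Mir3071* (chr12:109595318-109595397) covers all 62 bases of *Mir136*.

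**Figure D1:**
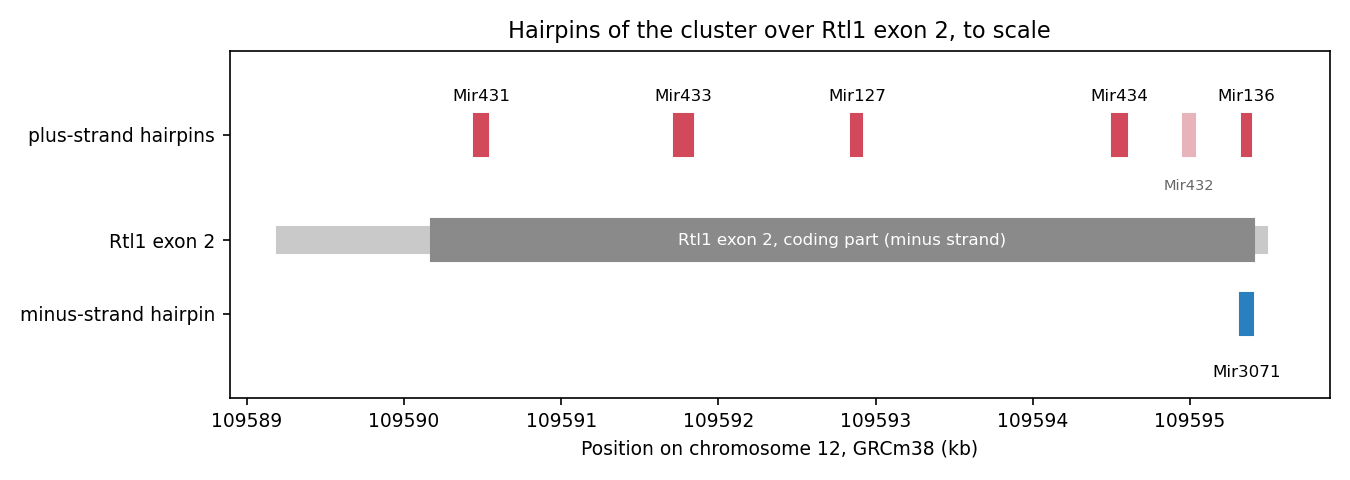
Map of *Rtl1* exon 2 on chromosome 12 (position in kb, GRCm38), with hairpins of the plus strand above, the exon in the middle (coding part darker) and the minus-strand hairpin *Mir3071* beneath. All 5 hairpins of the cluster fall inside the coding part, and *Mir3071* covers *Mir136* from the opposite strand.

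All 10 of 10 members were found in the RefSeq table of mature miRNAs (GRCm38.p6, 1679 names). The sequences of the arms that carried most of each hairpin's counts are shown first, because they make up most of the cluster's reads; capitals mark the seed, bases 2 to 8.
miR-127-3p: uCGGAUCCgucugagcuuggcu
miR-136-5p: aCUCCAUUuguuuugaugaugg
miR-434-3p: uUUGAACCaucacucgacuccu
miR-433-3p: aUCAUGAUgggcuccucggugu
miR-431-5p: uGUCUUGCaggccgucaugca
The opposite arms are shown because miR-127-5p and miR-434-5p, which edgeR called in breeding-trial *Zeb1 200M* mice, are among them.
miR-127-5p: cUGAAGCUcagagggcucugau
miR-434-5p: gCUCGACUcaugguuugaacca
miR-136-3p: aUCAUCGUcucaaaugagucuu
miR-433-5p: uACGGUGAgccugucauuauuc
miR-431-3p: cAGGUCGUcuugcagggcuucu
No seed was shared, either among the members or with any other name of the table (0 other names for each of the 10 members). The first 18 and the first 19 bases of each member, over which reads were matched, were shared with 0 other names, so a read of a member could be counted under no other name of that table. Each member had exactly 1 full-length complement in the *Rtl1* transcript, and all 10 lay in its coding sequence. The complements of miR-136-3p and miR-431-5p, at positions 164 and 5072 of the transcript, were the outermost. For the 3 arms whose levels or ratios differed in the tests described further on, the *Rtl1* stretches, 5′ to 3′ as in the transcript, were as follows.
Rtl1 stretch opposite miR-127-5p: atcagagccctctgagcttcag
Rtl1 stretch opposite miR-127-3p: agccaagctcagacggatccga
Rtl1 stretch opposite miR-434-5p: tggttcaaaccatgagtcgagc
Arms of the same hairpin shared short stretches in 2 cases. Both arms of miR-431 hold GUCUUGCAGG and both arms of miR-434 hold UUUGAACCA, whereas for the other 3 hairpins the longest shared stretch was 4 or 5 bases. *Rtl1* mRNA was not analysed here.

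The cluster was a large component of the pituitary miRNA pool. Its members together held 5.08% ± 0.335 (SD, n = 3) of all miRNA counts in virgin WT, 4.88% ± 0.207 (n = 4) in virgin *Zeb1 200H* and 4.90% ± 0.109 (n = 4) in virgin *Zeb1 200M*. In the breeding-trial cohort the share was 5.92% ± 0.320 (n = 4) in WT, 6.10% ± 0.141 (n = 3) in *Zeb1 200H* and 6.35% ± 0.329 (n = 3) in *Zeb1 200M*. Within each cohort these shares overlapped between genotypes; the highest virgin value, 5.46%, was that of WT replicate 1. Of the counts of all listed miRNAs of the *Dlk1–Dio3* domain, the cluster made up 52.0–54.4% in the 10 virgin libraries other than WT replicate 1, 63.6% in that library, and 51.7–57.4% in the breeding-trial libraries.

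miR-127-3p was the most abundant member in both cohorts, at 26629 CPM ± 1109 (SD, n = 10, all virgin libraries but WT replicate 1) and 30236 CPM ± 1542 (n = 10, breeding trial), and ranked from 6 to 10 among all miRNAs of a virgin library and from 6 to 8 of a breeding-trial library. The next was miR-136-5p, at 9025 CPM ± 657 in virgin libraries and 15099 CPM ± 2076 in breeding-trial libraries. The third was miR-434-3p, at 3955 CPM ± 213 and 5590 CPM ± 869. The virgin ranges compared here leave out WT replicate 1. With that limit these 3 guides were separated from each other and from all other members, with no overlap between the libraries' ranges in either cohort. In virgin WT replicate 1 miR-434-3p was at 1719 CPM, under miR-433-3p at 3593 CPM. Then came 5 arms of which each overlapped the next: in virgin libraries miR-433-3p at 2270 CPM ± 188, miR-136-3p at 2096 CPM ± 262, miR-127-5p at 1666 CPM ± 82.6, miR-431-5p at 1615 CPM ± 95.0 and miR-434-5p at 1530 CPM ± 118. The same 5 arms held places 4 to 8 in the breeding-trial libraries, with means from 1564 CPM ± 238 (miR-431-5p) to 2850 CPM ± 434 (miR-136-3p). Arms further apart in this order could be told apart: in virgin libraries miR-433-3p (at least 2012 CPM) lay above miR-127-5p (at most 1810 CPM), miR-431-5p and miR-434-5p, and in breeding-trial libraries miR-136-3p (at least 2105 CPM) lay above miR-434-5p (at most 1978 CPM) and miR-431-5p. Far lower were the passenger arms miR-433-5p, at 64.5 CPM ± 4.92 and 81.4 CPM ± 37.5, and miR-431-3p, at 28.2 CPM ± 3.18 and 21.7 CPM ± 13.5. Their ranges were apart in virgin libraries other than WT replicate 1 and overlapped in breeding-trial libraries. In the latter miR-431-3p rested on 1 to 5 counts per library, and its summed counts of 9 in WT, 11 in *Zeb1 200H* and 5 in *Zeb1 200M* gave 95% Poisson intervals of 7.56–31.4, 18.2–65.3 and 4.85–34.9 CPM, so a difference between genotypes was not detectable at this depth. Mature miRNAs have nearly the same length, so CPM needs no length correction, although libraries capture individual sequences with unequal efficiency. Intervals cover counting error only.

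**Figure D2:**
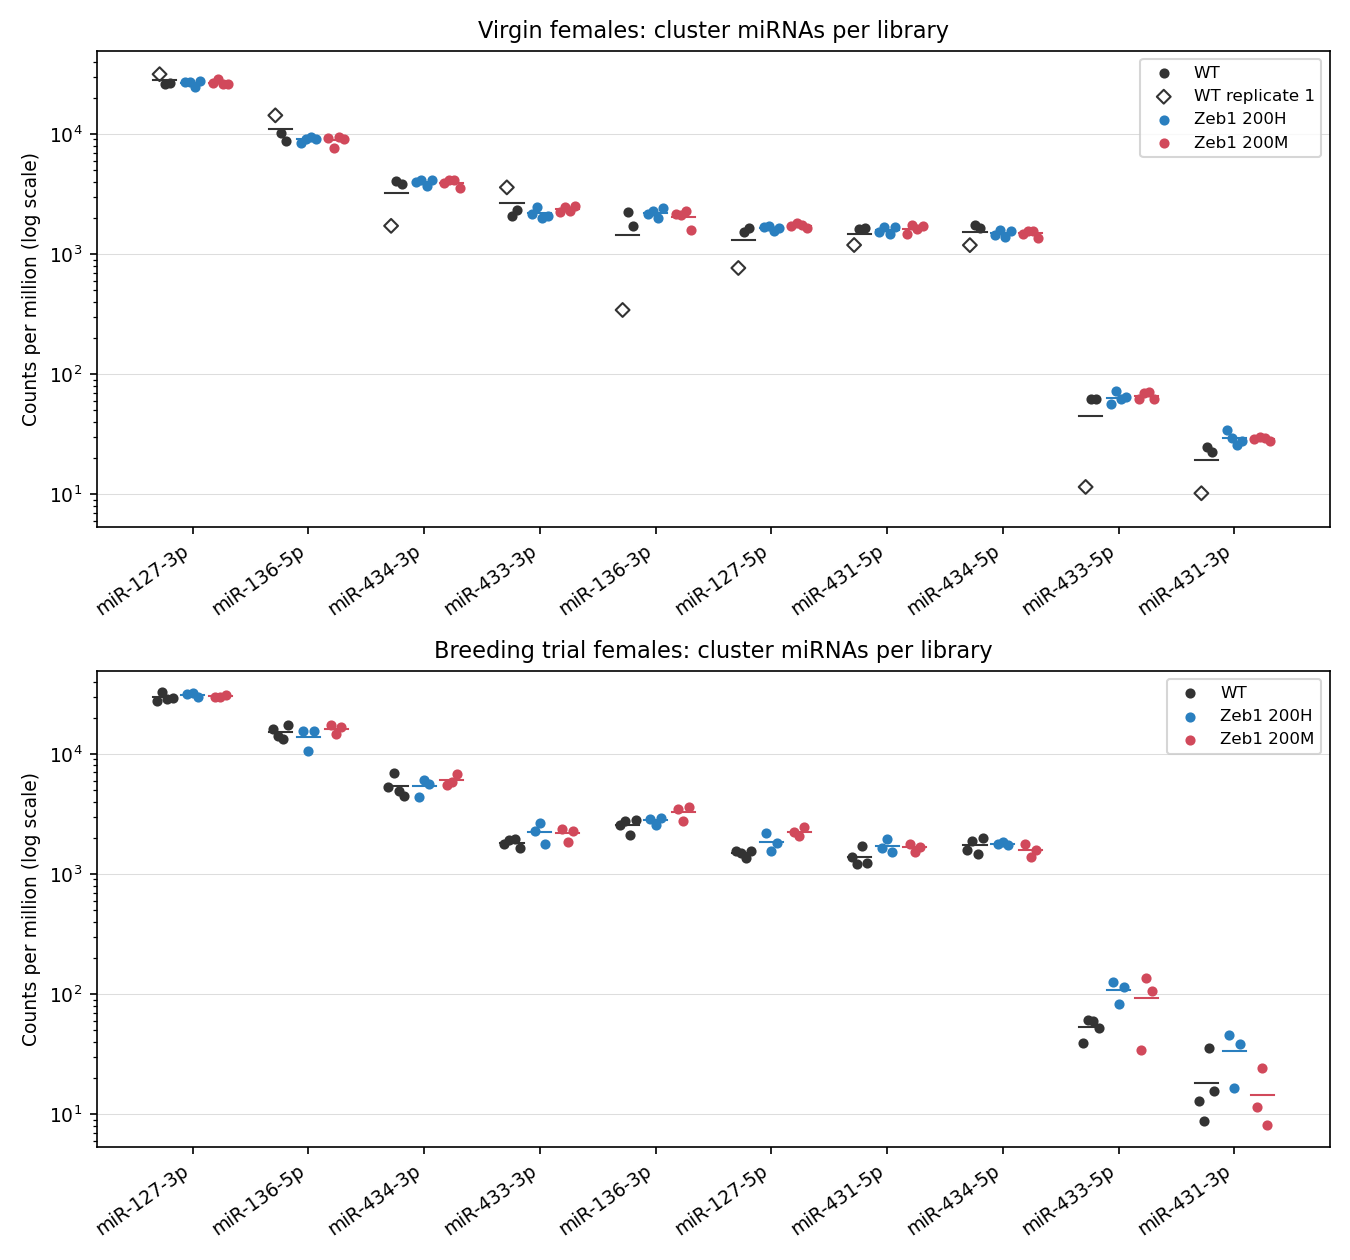
Level of each cluster member in each library (CPM, log scale), for virgin females (upper panel) and breeding-trial females (lower panel); points are libraries, horizontal bars are group means, and the open diamond is virgin WT replicate 1. miR-127-3p lay highest in every library, and in replicate 1 the arms miR-136-3p (343 CPM) and miR-433-5p (11.5 CPM) lay far under the other virgin libraries.

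Within the cluster, virgin WT replicate 1 differed from replicates 2 and 4 by an amount that depended on the arm. For 3 members its plain CPM was above the mean of WT replicates 2 and 4, by a ratio of 1.20 for miR-127-3p, 1.51 for miR-136-5p and 1.64 for miR-433-3p. The lowest ratios were 0.173 for miR-136-3p and 0.186 for miR-433-5p, and the other 5 members lay between 0.430 and 0.732. TMM scaling raised all these ratios alike, so that on the TMM scale of the *Zeb1 200M* comparison 5 members lay above replicates 2 and 4, among them miR-431-5p (1.15) and miR-434-5p (1.10), and the arms of all 5 hairpins lay on opposite sides of 1. On plain CPM both arms of miR-431 (0.430 and 0.732) and both arms of miR-434 (0.437 and 0.702) lay under 1. The arm ratio, the 3p count over the 5p count of a hairpin, does not depend on scaling between libraries and was shifted in this library. For miR-433 it was 308 in replicate 1, 33.7 in replicate 2 and 37.1 in replicate 4. The ratio of miR-136 was 0.0240 in replicate 1, against 0.221 and 0.197, and that of miR-127 was 41.0 against 17.0 and 16.3. In 4 of 5 hairpins the weaker arm was the depleted strand; in miR-434 the ratio of 1.45, against 2.31 and 2.34, came with a lower level of the stronger arm. The cause of these shifts was not tested.

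Markers of other cell types moved with genotype and are given here because they accompany the comparisons that follow. In bulk RNA, fewer cells of a type and less RNA per cell cannot be told apart. The pituitary list (miR-7a-5p, miR-7b-5p and miR-375-3p; 3 of 3 with counts in every library, miR-7a-5p the most abundant) summed to 368951, 269425 and 273145 CPM in virgin WT replicates 1, 2 and 4, and to 288001–314366 CPM in breeding-trial WT. It summed to 253180–277444 CPM in virgin *Zeb1 200H*, 231804–279905 CPM in virgin *Zeb1 200M*, 263402–289256 CPM in breeding-trial *Zeb1 200H* and 246486–260271 CPM in breeding-trial *Zeb1 200M*. The labelled tissue thus carried its defining miRNAs throughout. The brain list (the miR-124 and miR-9 arms; 4 names in the virgin dictionary and 3 in the other, all with counts in every library, miR-124-3p the most abundant) summed to 782, 1544 and 1691 CPM in virgin WT replicates 1, 2 and 4, to 4256, 4286, 4631 and 4705 CPM in the 4 virgin *Zeb1 200H* libraries and to 7577, 6277, 7535 and 5215 CPM in the 4 virgin *Zeb1 200M* libraries. In the breeding-trial cohort it summed to 1527, 1159, 1712 and 1774 CPM in WT, 5273, 3864 and 5323 CPM in *Zeb1 200H*, and 8738, 8640 and 8916 CPM in *Zeb1 200M*. Every mutant library thus lay above every WT library of its cohort. By edgeR, 2 of 4 brain miRNAs rose in each of the 3 virgin comparisons (*Zeb1 200M* against WT, *Zeb1 200H* against WT and *Zeb1 200M* against *Zeb1 200H*); in the breeding-trial cohort 2 of 2 tested rose in *Zeb1 200M* against WT, 1 of 2 in *Zeb1 200H* against WT and 1 of 2 in *Zeb1 200M* against *Zeb1 200H*. Without virgin WT replicate 1, 4 of 4 rose in both virgin mutants against WT. With all libraries the shares called over all tested miRNAs, in the order of comparisons above, were 6.49%, 5.06% and 2.22% in virgin mice. In the breeding-trial cohort these shares were 35.9%, 12% and 1.09%. Without virgin WT replicate 1 they were 23.9% in *Zeb1 200M* and 21.6% in *Zeb1 200H* against WT. The part of the brain miRNAs in the results for the cluster was not tested.

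Of the other marker lists, most calls came in breeding-trial *Zeb1 200M* against WT. Over all 276 tested miRNAs of that comparison 35.9% were called, 20.3% up and 15.6% down. There 2 of 2 endothelial miRNAs rose (miR-126a arms, most abundant miR-126a-3p; summed 6341, 6504, 6279 and 6590 CPM in the 4 WT libraries and 9707, 9824 and 8745 CPM in the 3 *Zeb1 200M* libraries), as did 2 of 2 smooth muscle miRNAs (miR-143-3p and the more abundant miR-145a-5p; 3669, 3967, 4091 and 3788 CPM in WT and 6217, 5564 and 5659 CPM in *Zeb1 200M*). Of the erythroid list 1 of 2 tested rose (most abundant miR-451a; 5934, 8364, 5767 and 6006 CPM in WT and 7198, 7980 and 10871 CPM in *Zeb1 200M*). Of the leukocyte list 1 of 2 rose (most abundant miR-142-5p; 168, 184, 131 and 282 CPM in WT and 433, 354 and 423 CPM in *Zeb1 200M*). Of the pituitary list 2 of 3 fell in that comparison and 1 of 3 in breeding-trial *Zeb1 200H* against WT, with 0 of 3 called in the other 4 comparisons. Summed levels of the endothelial and smooth muscle lists were also higher in breeding-trial *Zeb1 200H*, with 9327, 8212 and 8871 CPM and 4645, 4464 and 5163 CPM, all above every WT library, although edgeR called 0 of 2 and 0 of 2. In virgin mice the endothelial list summed to 4425, 4745 and 4074 CPM in WT replicates 1, 2 and 4. It summed to 5158–5761 CPM in *Zeb1 200H* and to 5397–5780 CPM in *Zeb1 200M*, again without overlap in plain CPM and with 0 of 2 called. Over all tested miRNAs the median log2 ratio of plain CPM to WT was 0.15 in breeding-trial *Zeb1 200H*, 0.31 in virgin *Zeb1 200H* and 0.35 in virgin *Zeb1 200M*. The edgeR medians of the endothelial list in these comparisons were 0.27, 0.05 and 0.05, and that of the smooth muscle list in the first was 0.15. The virgin leukocyte list summed to 47.4, 195 and 207 CPM in these WT libraries, to 216–294 CPM in *Zeb1 200H* and to 207–347 CPM in *Zeb1 200M*, with 0 of 2 called; the mutant libraries lay above the WT libraries, by less than 1 CPM at the closest. Outside these, edgeR called 1 of 2 smooth muscle miRNAs up in virgin *Zeb1 200M* against WT (1867, 2306 and 2395 CPM in WT replicates 1, 2 and 4, and 4412, 4159, 2020 and 3807 CPM in *Zeb1 200M*) and no other miRNA of the endothelial, smooth muscle, erythroid and leukocyte lists. Skeletal muscle and liver miRNAs were low. The skeletal muscle list summed to at most 51.0 CPM in any library and the liver list to at most 49.97 CPM. In virgin mice the liver list was at 2.36, 4.53 and 4.98 CPM in WT replicates 1, 2 and 4, 7.01–7.93 CPM in *Zeb1 200H* and 5.23–7.26 CPM in *Zeb1 200M*, and the skeletal muscle list at 5.24, 9.07 and 4.21 CPM, 10.5–35.3 CPM and 8.82–51.0 CPM. The skeletal muscle list was at 0 in 3 and the liver list in 5 of the 10 breeding-trial libraries. Neither list was tested in that cohort, and 0 of their miRNAs were called in the virgin comparisons with all libraries. Without virgin WT replicate 1, edgeR called in *Zeb1 200M* against WT 2 of 2 skeletal muscle and 1 of 2 smooth muscle miRNAs up and 1 of 3 pituitary miRNAs down. In *Zeb1 200H* against WT without that library it called 1 of 1 skeletal muscle, 1 of 2 smooth muscle and 1 of 2 leukocyte miRNAs up and 1 of 3 pituitary miRNAs down, and no other miRNA of these lists in either. The part of these miRNAs in the results was not tested.

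Before the members are compared, the scale needs stating. Across all tested miRNAs the median log2 ratio of plain CPM was 0.35 in virgin *Zeb1 200M* against WT, 0.31 in virgin *Zeb1 200H* against WT, 0.23 in breeding-trial *Zeb1 200M* against WT and 0.15 in breeding-trial *Zeb1 200H* against WT. Fold changes from edgeR use TMM scaling (trimmed mean of M values), which brings these medians near 0, and are therefore relative to the typical miRNA. Where a result turns on it, both plain CPM and TMM-scaled CPM are given.

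As a check of the labels, the guide strands of the miR-200 superfamily were compared first. All 5 of 5 fell in both mutant genotypes against WT in both cohorts. Their summed level was 59976 CPM ± 7640 (n = 3) in virgin WT, 12812 CPM ± 1121 (n = 4) in virgin *Zeb1 200H* and 6877 CPM ± 253 (n = 4) in virgin *Zeb1 200M*. In the breeding-trial cohort it was 63020 CPM ± 1101 (n = 4), 12803 CPM ± 443 (n = 3) and 7654 CPM ± 519 (n = 3). The median log2 fold changes against WT were −3.49 and −2.67 in virgin *Zeb1 200M* and *Zeb1 200H*, and −3.21 and −2.53 in the breeding-trial libraries; without virgin WT replicate 1 the virgin medians were −3.30 and −2.42, with 5 of 5 called in each. Between the mutants, *Zeb1 200M* against *Zeb1 200H*, 5 of 5 fell in virgin mice (median −0.82) and 2 of 5 in breeding-trial mice (median −0.35). Against WT, the edgeR values of the cluster members, from −0.82 to 0.43 over the 4 comparisons, were all smaller in size than those of any miR-200 guide, from −4.10 to −2.31.

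In breeding-trial *Zeb1 200M* pituitary, 1 member rose and 1 fell relative to WT, and both were the less abundant arms of their hairpins. The first was miR-127-5p, the arm opposite the abundant miR-127-3p. Its plain CPM was 2236, 2053 and 2484 in *Zeb1 200M* replicates 1 to 3, and 1553, 1483, 1368 and 1555 in WT replicates 1 to 4. All 3 *Zeb1 200M* libraries lay above all 4 WT libraries, and they did so on the TMM scale as well, with means of 2057 CPM ± 151 (n = 3) and 1597 CPM ± 119 (n = 4). The counts behind these values were modest, 196, 255 and 305 in *Zeb1 200M* and 240, 169, 115 and 298 in WT. By edgeR the log2 fold change of miR-127-5p was 0.36 (SE 0.116, 1.28-fold, adjusted p = 0.0201, higher in 3 of 3 libraries).

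The second was miR-434-5p. Its plain CPM was 1780, 1385 and 1580 in the *Zeb1 200M* libraries and 1585, 1896, 1475 and 1978 in the WT libraries, which overlap. On the TMM scale it was 1631, 1288 and 1406 CPM in *Zeb1 200M* and 1731, 1958, 1577 and 2161 CPM in WT, so that all 3 *Zeb1 200M* libraries lay under the WT mean of 1857 CPM ± 256 and 2 of 3 lay under every WT library. By edgeR the log2 fold change of miR-434-5p was −0.38 (SE 0.131, a 1.31-fold decrease, adjusted p = 0.0245, lower than the WT mean in 3 of 3 libraries on the TMM scale). Its decrease was thus relative to the other miRNAs, with little difference in plain CPM. These 2 calls, 1 up and 1 down, were made among 8 tested members, while over all 276 tested miRNAs 35.9% were called, 20.3% up and 15.6% down.

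The most abundant guide of the cluster did not pass in this comparison. miR-127-3p had 29875, 29672 and 31040 plain CPM in *Zeb1 200M* and 27720, 32562, 28599 and 29371 in WT, which overlap. On the TMM scale the groups were apart, at 27374, 27603 and 27633 CPM in *Zeb1 200M* and 30269, 33630, 30580 and 32096 CPM in WT. The plain means went the other way, at 30196 CPM in *Zeb1 200M* and 29563 CPM in WT. The edgeR log2 fold change of miR-127-3p was −0.20 (SE 0.0882, adjusted p = 0.0798, lower in 3 of 3 libraries on the TMM scale). DESeq2 called it at −0.21 (adjusted p = 0.0386), and over all settings tried its adjusted p ran from 0.0386 to 0.202. The other 5 tested members had log2 fold changes from −0.14 (miR-136-5p) to 0.11 (miR-136-3p), none called. Across the 8 tested members the median was −0.02, against 0.00 over all tested miRNAs. miR-431-3p and miR-433-5p did not pass the filter on low counts; the latter had summed counts of 28 in WT, 34 in *Zeb1 200H* and 33 in *Zeb1 200M*, or 51.4 CPM (95% Poisson interval 34.2–74.4), 113 CPM (78.1–158) and 98.6 CPM (67.9–138). miR-433-5p was tested in 2 other settings, at 0.64 with no filter (edgeR adjusted p = 0.431) and at 0.99 without *Zeb1 200M* replicate 1 (edgeR adjusted p = 0.0435), its only call.

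Each call was lost in some settings. Without *Zeb1 200M* replicate 3 there were 0 calls, with miR-127-5p at 0.31 (adjusted p = 0.0975) and miR-434-5p at −0.35 (adjusted p = 0.0980). Without *Zeb1 200M* replicate 2 miR-434-5p was at −0.30 (adjusted p = 0.169), and without WT replicate 4 it was at −0.27 (adjusted p = 0.113). With the replicate number as a block miR-434-5p was not called, at −0.29 (adjusted p = 0.141), and miR-127-5p was, at 0.39 (adjusted p = 0.0410). With no filter on low counts miR-127-5p was at 0.32 (adjusted p = 0.0826). Over all settings miR-127-5p ranged from 0.31 to 0.42 (adjusted p from 0.0102 to 0.0975) and miR-434-5p from −0.47 to −0.27 (adjusted p from 0.00777 to 0.169), with the direction of each the same in all of them.

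In breeding-trial *Zeb1 200H* pituitary, edgeR called 0 of 8 tested members against WT, where 12% of 267 tested miRNAs were called. At an unadjusted p under 0.05 there was 1 member by edgeR, among 73 of 267 miRNAs at that threshold, and DESeq2 and limma voom with quality weights called 0. That member was miR-136-5p, the guide of its hairpin, with 15527, 10660 and 15542 plain CPM in *Zeb1 200H* replicates 1, 3 and 4, and 16002, 13990, 13259 and 17412 in WT replicates 1 to 4. The low value was that of *Zeb1 200H* replicate 3, the shallowest library of all with 60037 counts, and the groups overlapped. Its edgeR log2 fold change was −0.30 (SE 0.131, adjusted p = 0.145, under the WT mean in 1 of 3 libraries on plain CPM and in 3 of 3 on the TMM scale). Same-numbered libraries of this comparison deviated together, and with the replicate number as a block miR-136-5p was called, at −0.35 (SE 0.0951, adjusted p = 0.00463), in a fit that called 17.6% of all tested miRNAs. Over all settings its value ran from −0.37 to −0.15 and its adjusted p from 0.00463 to 0.425. miR-127-5p was at 0.15 (SE 0.146) and miR-434-5p at −0.14 (SE 0.145), and the 8 members spanned −0.30 to 0.15 with a median of −0.07, against 0.00 over all. miR-433-5p, not tested here, had 127, 83.3 and 114 CPM in *Zeb1 200H* and 38.8, 61.4, 59.5 and 52.2 CPM in WT, with no overlap, on 5 to 15 counts per library. The 5 settings in which it passed the filter gave it 0.82 to 1.02 (edgeR adjusted p from 0.0816 to 0.265), with 0 calls.

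The difference between the mutants was tested directly. In breeding-trial *Zeb1 200M* against *Zeb1 200H*, edgeR called 0 of 9 tested members, with 0 at an unadjusted p under 0.05 (40 of 274 over all miRNAs) and 0 by DESeq2 and by limma voom, where 1.09% of 274 tested miRNAs were called. miR-127-5p differed by 0.22 (SE 0.156) and miR-434-5p by −0.23 (SE 0.160), so the calls made in *Zeb1 200M* and not in *Zeb1 200H* did not come with a difference between these genotypes that passed the test. The 9 members ranged from −0.24 to 0.22.

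In virgin mice edgeR called 0 of 10 members in *Zeb1 200M* against WT, where 6.49% of 678 tested miRNAs were called, and 0 of 10 in *Zeb1 200H* against WT, where 5.06% of 672 were called. At an unadjusted p under 0.05 there were 2 members in each comparison, miR-434-5p and miR-136-5p, among 150 of 678 and 131 of 672 miRNAs at that threshold, and DESeq2 and limma voom with quality weights each called 1, miR-434-5p. Both comparisons share the 3 WT libraries. The counts change with the library that stood apart: without WT replicate 1, edgeR called 1 of 10 members in each, again miR-434-5p, where 23.9% of 703 tested miRNAs were called for *Zeb1 200M*, and 21.6% of 699 for *Zeb1 200H*.

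The plain CPM of miR-434-5p was 1187, 1743 and 1638 in virgin WT replicates 1, 2 and 4. It was 1446, 1594, 1380 and 1548 in *Zeb1 200H* and 1468, 1553, 1569 and 1362 in *Zeb1 200M*. WT replicate 1 lay under all mutant libraries, and WT replicates 2 and 4 lay above all 8 of them. On the TMM scale of the *Zeb1 200M* comparison all 3 WT libraries, at 1880, 1780 and 1628 CPM, lay above the 4 *Zeb1 200M* libraries, at 1322, 1350, 1370 and 1242 CPM. On that of the *Zeb1 200H* comparison WT was at 1589–1854 CPM and *Zeb1 200H* at 1264–1398 CPM. The plain means with all libraries were close, at 1523 CPM in WT, 1492 CPM in *Zeb1 200H* and 1488 CPM in *Zeb1 200M*. With all libraries the edgeR log2 fold change in *Zeb1 200M* was −0.42 (SE 0.123, adjusted p = 0.0932, lower in 4 of 4 on the TMM scale). In *Zeb1 200H* it was −0.36 (SE 0.121, adjusted p = 0.154, lower in 4 of 4 on the TMM scale). Without WT replicate 1 the edgeR value was −0.35 (SE 0.0837, a 1.27-fold decrease, adjusted p = 0.0122) in *Zeb1 200M*. It was −0.31 (SE 0.0766, a 1.24-fold decrease, adjusted p = 0.0113) in *Zeb1 200H*. DESeq2 with all libraries gave −0.45 (adjusted p = 0.00896) and −0.40 (adjusted p = 0.0149). Over all settings the values were −0.45 to −0.34 in *Zeb1 200M* (adjusted p from 0.00482 to 0.517) and −0.41 to −0.31 in *Zeb1 200H* (adjusted p from 0.0113 to 0.534). Over the 4 comparisons with WT the edgeR value of miR-434-5p was thus −0.42 and −0.36 in virgin mice and −0.38 and −0.14 in breeding-trial mice, of which 1 was called with all libraries.

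The guides miR-136-5p, miR-433-3p and miR-127-3p had the lowest virgin fold changes, and these shrank without WT replicate 1. miR-136-5p had 14293, 10123 and 8799 CPM in WT replicates 1, 2 and 4 against 8471–9355 CPM in *Zeb1 200H* and 7604–9410 CPM in *Zeb1 200M*. Its log2 fold change in *Zeb1 200M* was −0.82 (SE 0.309, adjusted p = 0.162) with replicate 1 and −0.26 (SE 0.102, adjusted p = 0.0933) without it, and in *Zeb1 200H* it was −0.75 and −0.20. For miR-433-3p the values in *Zeb1 200M* were −0.67 with and −0.04 without that library, and for miR-127-3p they were −0.52 and −0.13. In *Zeb1 200H* they were −0.75 and −0.13 for miR-433-3p and −0.49 and −0.11 for miR-127-3p. Among the weaker arms, miR-136-3p was at 0.25 in *Zeb1 200M* and 0.43 in *Zeb1 200H* with replicate 1, and at −0.12 and 0.02 without it. miR-127-5p, which rose in the breeding-trial *Zeb1 200M* libraries, was at 0.06 in virgin *Zeb1 200M* and 0.05 in virgin *Zeb1 200H*. Without replicate 1 it was at −0.03 and −0.07. Its plain CPM was 766, 1531 and 1634 in WT replicates 1, 2 and 4 against 1559–1703 in *Zeb1 200H* and 1649–1810 in *Zeb1 200M*. On the TMM scale of the *Zeb1 200M* comparison these WT libraries were at 1213, 1563 and 1623 CPM and the *Zeb1 200M* libraries at 1503–1573 CPM. On that of the *Zeb1 200H* comparison WT was at 1197–1584 CPM and *Zeb1 200H* at 1427–1547 CPM. The median over the 10 members was −0.13 in *Zeb1 200M* and −0.09 in *Zeb1 200H*, against −0.0025 and 0.01 over all tested miRNAs. Without WT replicate 1 it was −0.13 and −0.11, against 0.04 and 0.0091 over all.

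Between the virgin mutants the members were nearly level. edgeR called 0 of 10 in *Zeb1 200M* against *Zeb1 200H*, with 0 at an unadjusted p under 0.05 (63 of 675 over all miRNAs) and 0 by DESeq2 and by limma voom, where 2.22% of 675 tested miRNAs were called. The log2 fold changes ran from −0.17 (miR-136-3p) to 0.07 (miR-433-3p). For miR-127-3p the value was −0.04 (SE 0.0480). Its 95% interval by a normal approximation, −0.14 to 0.05, was the narrowest obtained for this miRNA in any comparison. That approximation takes the SE as known, so the edgeR test itself would give a wider interval.

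The arm ratio does not depend on scaling between libraries, because both arms are counted in the same library. In virgin libraries other than WT replicate 1 the 3p arm prevailed in miR-433 (ratio 35.2 ± 2.81, SD, n = 10), miR-127 (16.0 ± 0.589) and miR-434 (2.59 ± 0.148), and the 5p arm in miR-136 (0.233 ± 0.0327) and miR-431 (0.0175 ± 0.00236). The same arm prevailed for all 5 hairpins in every library of both cohorts.

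**Figure D3:**
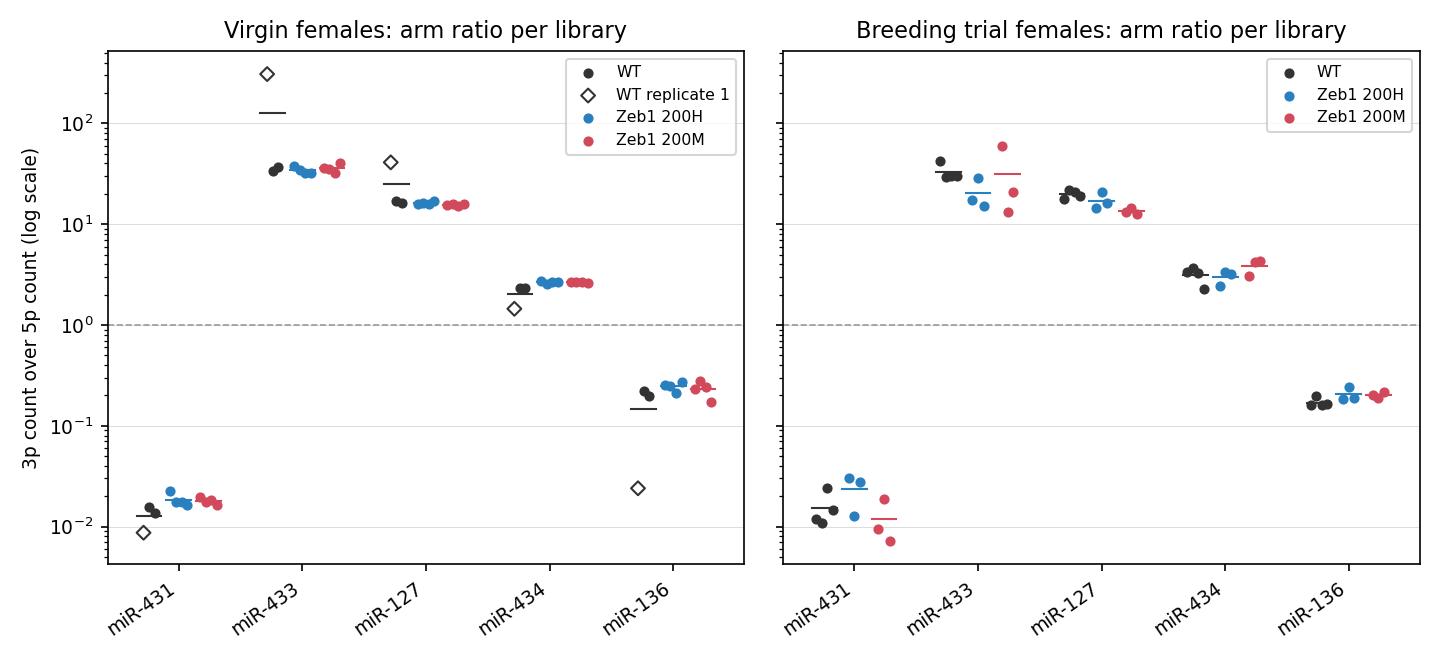
Ratio of the 3p count to the 5p count (log scale) for each hairpin of the cluster in each library, virgin females on the left and breeding-trial females on the right; points are libraries, horizontal bars are group means, the dashed line marks equal counts and the open diamond is virgin WT replicate 1. In the right panel the 3 *Zeb1 200M* libraries lie under the 4 WT libraries for miR-127, at 12.5–14.4 against 17.8–21.9.

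The ratio of miR-127 differed between genotypes in breeding-trial mice. It was 13.3, 14.4 and 12.5 in *Zeb1 200M* replicates 1 to 3, 14.3, 20.6 and 16.3 in *Zeb1 200H* replicates 1, 3 and 4, and 17.8, 21.9, 20.8 and 18.9 in WT replicates 1 to 4. All *Zeb1 200M* libraries lay under all WT libraries, and the *Zeb1 200H* libraries overlapped both groups. By limma across all hairpins the log2 ratio fell by 0.56 in *Zeb1 200M* relative to WT (SE 0.122, adjusted p = 0.00079856, lower in 3 of 3 libraries). It was 1 of 3 hairpins of the cluster that were deep enough to be tested, and over all 47 tested hairpins 4.26% were called, the other being miR-540 of the same domain. Without *Zeb1 200M* replicate 3 the difference was −0.51 (adjusted p = 0.0646) and no hairpin of the cluster passed. Over all settings it ran from −0.62 to −0.51, with adjusted p from 0.00028 to 0.0646.

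The other 2 tested hairpins did not pass. In *Zeb1 200M* against WT the log2 ratio of miR-136 differed by 0.26 (SE 0.0965, adjusted p = 0.103) and that of miR-434 by 0.31 (SE 0.143, adjusted p = 0.190). Without WT replicate 2 both passed, at 0.33 (adjusted p = 0.00113) and 0.38 (adjusted p = 0.0159), and over all settings their adjusted p ran from 0.00113 to 0.481 and from 0.0159 to 0.596. In *Zeb1 200H* against WT limma called 0 of 3 hairpins of the cluster, with miR-127 at −0.23 (SE 0.165, adjusted p = 0.510) and 2.08% of 48 hairpins called. In *Zeb1 200M* against *Zeb1 200H* it called 0 of 4, with 0% of 48 hairpins called and 7 at an unadjusted p under 0.05; among these were miR-127 at −0.34 (SE 0.166, adjusted p = 0.304) and miR-434 at 0.36 (SE 0.174, adjusted p = 0.304). The lower miR-127 ratio in *Zeb1 200M* than in *Zeb1 200H* thus did not pass the test of that difference.

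In virgin mice the arm ratios of the cluster did not pass in any comparison. limma called 0 of 5 hairpins in *Zeb1 200M* against WT, 0 of 5 in *Zeb1 200H* against WT and 0 of 5 in *Zeb1 200M* against *Zeb1 200H*, and over all 192, 189 and 195 tested hairpins 0% were called, with 10, 9 and 9 at an unadjusted p under 0.05. With all libraries the differences in *Zeb1 200M* against WT were −0.53 for miR-127, 1.177 for miR-136, 0.54 for miR-431, −1.02 for miR-433 and 0.41 for miR-434. Without WT replicate 1 they were −0.10, 0.14, 0.29, 0.02 and 0.18 in that order. In *Zeb1 200H* against WT they were −0.48, 1.27, 0.58, −1.09 and 0.43 with all libraries and −0.04, 0.23, 0.33, −0.05 and 0.20 without replicate 1. Most of the large virgin differences in arm ratio were therefore present only with that library in the comparison. For miR-434 the ratio was 2.31 and 2.34 in WT replicates 2 and 4 against 2.67 ± 0.0743 (n = 4) in *Zeb1 200H* and 2.65 ± 0.0375 (n = 4) in *Zeb1 200M*, with both WT values under all 8 mutant values.

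Whether genotype effects differed between the cohorts was tested over all 21 libraries. edgeR called 0 of 10 members for *Zeb1 200M* against WT and 0 of 10 for *Zeb1 200H* against WT, and 0% of 566 tested miRNAs in either case, with 44 and 49 miRNAs at an unadjusted p under 0.05. Among these were 2 members for *Zeb1 200M*, miR-136-5p (0.69, SE 0.313, adjusted p = 0.605) and miR-433-3p (0.71, SE 0.319, adjusted p = 0.605), and 1 for *Zeb1 200H*, miR-433-3p (0.86, SE 0.320, adjusted p = 0.512), positive values meaning a higher fold change in the breeding-trial cohort. Without virgin WT replicate 1 these 3 values were 0.18, 0.13 and 0.28, the largest difference was that of miR-433-5p, at 0.80 (adjusted p = 0.617) in *Zeb1 200M* and 1.06 (adjusted p = 0.698) in *Zeb1 200H* against 0.41 and 0.67 with all libraries, and again 0 members were called. For miR-127-5p, called in *Zeb1 200M* of the breeding-trial cohort and not of the virgin cohort, the difference was 0.31 (SE 0.193, adjusted p = 0.682) with all libraries and 0.46 (SE 0.160, adjusted p = 0.394) without virgin WT replicate 1. For miR-434-5p it was 0.05 (SE 0.178) in *Zeb1 200M* and 0.22 (SE 0.178) in *Zeb1 200H*, and 0.03 and 0.21 without that library. The genotype effects on these arms were thus not shown to differ between cohorts.

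The neighbours of the cluster in the *Dlk1–Dio3* domain were described by the same edgeR tests, and their counts are to be read beside the shares called over all miRNAs. These shares were 6.49% and 5.06% in virgin *Zeb1 200M* and *Zeb1 200H* against WT, and 35.9% and 12% in the breeding-trial cohort. For *Zeb1 200M* against *Zeb1 200H* they were 2.22% of 675 miRNAs in virgin mice and 1.09% of 274 in breeding-trial mice. On the *Meg3* side, which holds miR-770 inside the *Meg3* gene, 0 of 14 tested miRNAs were called in virgin *Zeb1 200M* against WT, 1 of 14 rose in virgin *Zeb1 200H* against WT (miR-3544-3p, 1.4998) and 2 of 14 rose in virgin *Zeb1 200M* against *Zeb1 200H* (miR-770-3p, 0.37; miR-770-5p, 0.36). In the breeding-trial cohort 2 of 7 rose and 2 of 7 fell in *Zeb1 200M* against WT, led by miR-540-5p (−1.09), miR-770-3p (1.01) and miR-770-5p (0.94), whereas 1 of 7 rose (miR-770-5p, 0.85) and 1 of 7 fell (miR-540-5p, −0.70) in *Zeb1 200H* against WT and 0 of 7 were called between the mutants. On the *Rian* side 0 miRNAs were called in any of the 6 comparisons with all libraries, with 2 to 5 tested. Of the miR-379 to miR-410 cluster, the large group of hairpins further along the domain, 0 of 58 rose and 2 of 58 fell in virgin *Zeb1 200M* against WT (miR-679-5p, −1.52; miR-494-3p, −0.80) and likewise in virgin *Zeb1 200H* against WT (−1.63 and −0.69). In breeding-trial *Zeb1 200M* against WT 4 of 40 rose and 4 of 40 fell, the largest being miR-494-3p (−0.95), miR-487b-3p (0.84) and miR-409-5p (−0.80); in *Zeb1 200H* against WT 1 of 39 fell (miR-409-5p, −0.65). No miRNA of that cluster was called between the mutants, of 57 tested in virgin and 39 in breeding-trial mice. The median of this list in breeding-trial *Zeb1 200M* against WT was −0.0028. Without virgin WT replicate 1, where 23.9% and 21.6% of all miRNAs were called, edgeR called 7 of 59 up and 9 of 59 down in virgin *Zeb1 200M* against WT and 6 of 58 up and 12 of 58 down in virgin *Zeb1 200H* against WT. In the same fits 2 of 14 and 3 of 14 rose on the *Meg3* side and 2 of 5 and 1 of 5 on the *Rian* side, with 0 down. miR-679-5p was then at −1.06 and −1.19, miR-494-3p at −0.89 and −0.80, and miR-3544-3p at 1.36 in *Zeb1 200H*.

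The minus-strand hairpin *Mir3071* was almost silent in these libraries. miR-3071-5p, which is complementary to 19 bases of miR-136-3p, had 4 to 25 counts per virgin library (136 in all, 1.35 CPM, 95% Poisson interval 1.13–1.59) and 0 or 1 per breeding-trial library. miR-3071-3p, complementary to 20 bases of miR-136-5p, had 0 to 4 counts per virgin library and 0 in the breeding-trial libraries, which allows at most 2.54 CPM at 3 counts of 1180255. miR-3071-5p was tested only in virgin mice and was not called, at 0.93 in *Zeb1 200M* against WT, 0.77 in *Zeb1 200H* against WT and 0.17 between the mutants, nor without virgin WT replicate 1, at 1.28 and 1.08 against WT. *Mir432*, which was looked at after its values were seen, had 0 counts in all 21 libraries, which allows at most 0.0297 CPM over the 101038903 counts of the virgin libraries and 2.54 CPM over those of the breeding trial.

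The miRNAs whose level stayed closest to that of miR-127-3p were found by the SD of their log2 count ratio to it, taking the larger of the virgin (n = 11) and breeding-trial (n = 10) SD. Of 146 compared miRNAs outside the cluster, the steadiest were let-7b-5p (0.116), miR-30e-3p (0.119), miR-16-5p (0.137), miR-26a-5p (0.143) and miR-671-5p (0.151). The names depended on the libraries and on depth: without virgin WT replicate 1 only 2 of 5 stayed (the 5 being miR-382-5p, miR-26b-5p, let-7b-5p, miR-15b-5p and miR-30e-3p, the first of them from the *Dlk1–Dio3* domain), and with a mean of at least 500 counts 3 of 5 stayed. Members of the cluster itself had larger values than these 5, from 0.191 for miR-433-3p and 0.208 for miR-434-5p to 0.874 for miR-136-3p, and held ranks from 10 to 141 among 153 miRNAs. For 4 of 7 compared members the larger SD was the virgin one, and for miR-433-3p, miR-136-5p and miR-431-5p it was that of the breeding trial. The virgin SD of the 7 members ran from 0.163 (miR-433-3p) to 0.874 (miR-136-3p), against a median of 0.380 over all miRNAs. Without virgin WT replicate 1 it ran from 0.0528 (miR-127-5p) to 0.156 (miR-136-5p) and 0.180 (miR-136-3p), against a median of 0.153. In breeding-trial libraries it ran from 0.145 (miR-434-5p) to 0.252 (miR-136-5p) and 0.291 (miR-127-5p), against a median of 0.251.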

How the data were processed

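Reads were processed by the authors, who trimmed adapters with cutadapt, filtered on quality with FastX, removed size standards and spike-ins and matched the first 19 bases (virgin) or first 18 bases (breeding trial) of each read without mismatch to miRNA dictionaries (TargetScanMouse Release 7 and miRBase v20). The raw count of each miRNA, as deposited by the authors, was used for all results. The authors' signal columns (counts divided by a DESeq2 size factor, and their mean) were deposited too and not used here. The log2 fold changes and their standard errors were made by the authors with DESeq2 for each genotype pair and were not used. The score column deposited by the authors holds the Wald statistic of that fit and was not used. The p-value columns deposited by the authors hold its p and adjusted p and were not used. Counts were identical in both tables in which a library appears (21 of 21 libraries).

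Tests used edgeR 4.0.16 in R 4.3.3 (quasi-likelihood, TMM scaling, filterByExpr) per cohort and comparison, with Benjamini-Hochberg adjustment over all tested miRNAs and a threshold of 0.05. Arm ratios were log2 of 3p over 5p counts, with 0.5 added to each, for hairpins with a mean of at least 10 counts per arm, tested with limma 3.58.1. DESeq2 1.42.0, limma voom with quality weights, other scalings and filters, a joint fit, a replicate block and fits without each library served as alternatives. Same-numbered libraries were checked for shared deviations, and differently numbered libraries were not compared in this way. In breeding-trial *Zeb1 200H* against WT the correlations were weak, at 0.112, 0.100 and 0.190. The blocked value is given there because all were above 0.1, which was not so in the other comparisons. In virgin *Zeb1 200M* against *Zeb1 200H* they ran from −0.0075 to 0.218. The numbers are not stated to pair mice. Intervals of levels were Clopper-Pearson or Poisson intervals, and a floor was 3 counts. Descriptions used Python 3.11.15 with numpy 2.4.6, pandas 2.3.3, scipy 1.17.1 and matplotlib 3.10.9. Hairpins and *Rtl1* came from GENCODE M21, mature sequences from RefSeq GRCm38.p6.

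All 10 members are named. From the *Meg3*-side, *Rian*-side and miR-379 to miR-410 lists, up to 3 called miRNAs with the largest fold change per comparison are named. Steadiest miRNAs were the 5 with the smallest SD of log2 ratio to miR-127-3p among those with a mean of at least 50 counts per library in each cohort. The members and the lists (neighbours in the domain, antisense to miR-136, miR-200 guides, and pituitary, brain, skeletal muscle, liver, erythroid, leukocyte, endothelium and smooth muscle markers) were chosen with earlier results of these data known. Counting the other lists without virgin WT replicate 1 was chosen after seeing the data. *Zeb1* mRNA, *Rtl1* mRNA and protein were not analysed here.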

Additional observations from a re-analysis of the deposited data

Results flagged for a closer look

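In each of 45 groups of libraries the gap between the most distant value and its nearest neighbour was divided by the whole range of the group, and 3 values stood apart by this gap rule. About 1 in 20 groups would be marked by chance. All 3 values were in groups of 4 libraries. Virgin WT replicate 1 was not among them, although its miR-433-5p was at 11.5 CPM against 61.6 and 62.2 CPM in WT replicates 2 and 4. The rule therefore does not clear that library. miR-136-5p in virgin *Zeb1 200M* replicate 2 was 7604 CPM, against 9140–9410 CPM in the other libraries of its group. The log2 ratio of 3p over 5p of miR-433 in breeding-trial WT replicate 1 was 5.39, against 4.88–4.90. The log2 ratio of 3p over 5p of miR-136 in breeding-trial WT replicate 2 was −2.34, against −2.65 to −2.62. The cause was not tested.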

How the results depend on the processing

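Of 1102 alternative values of members and hairpins, 1027 kept sign and call, 56 changed sign, 12 gained a call and 7 lost one. No value changed sign where it was called in either setting, and the largest that changed sign had a size of 0.30. The cause was not tested.

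In virgin *Zeb1 200M* against WT the 0 members called became 1 by DESeq2, 1 by a joint fit of 3 genotypes and 1 by limma voom with quality weights, and 0 to 1 with a library left out. Voom gave −0.042 for miR-127-5p, −0.080 for miR-136-3p and −0.049 for miR-433-5p, and no filter gave 0.035 for miR-434-3p. With a library left out, miR-127-5p ran from −0.034 to 0.16, miR-136-3p from −0.12 to 0.68, miR-433-5p from −0.060 to 0.52 and miR-434-3p from −0.16 to 0.10. In virgin *Zeb1 200H* against WT the 0 members called became 1 by DESeq2, 1 by the joint fit and 1 by voom, and 0 to 1 with a library left out. Voom gave −0.049 for miR-127-5p, −0.080 for miR-433-5p and −0.090 for miR-434-3p. With a library left out, miR-127-5p ran from −0.072 to 0.13, miR-433-5p from −0.086 to 0.51 and miR-434-3p from −0.11 to 0.17.

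In virgin *Zeb1 200M* against *Zeb1 200H*, TMM without *Dlk1–Dio3* miRNAs gave −0.0029 for miR-433-5p. With a library left out, miR-136-5p ran from −0.10 to 0.0054, miR-431-3p from −0.10 to 0.034, miR-431-5p from −0.046 to 0.024 and miR-433-5p from −0.032 to 0.052.

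The 2 members called in breeding-trial *Zeb1 200M* against WT became 3 by DESeq2, 1 with no filter, 1 with a replicate block and 0 to 3 with a library left out. miR-433-3p was −0.0068 with no filter and −0.014 with the replicate block. With a library left out, miR-431-5p ran from −0.0068 to 0.14, miR-433-3p from −0.031 to 0.13 and miR-434-3p from −0.12 to 0.075. In breeding-trial *Zeb1 200H* against WT the replicate block gave 1 member called in place of 0. With a library left out, miR-136-3p ran from −0.15 to 0.0074 and miR-433-3p from −0.020 to 0.28. In breeding-trial *Zeb1 200M* against *Zeb1 200H*, miR-431-5p ran from −0.14 to 0.045, miR-433-3p from −0.21 to 0.072 and miR-433-5p from −0.61 to 0.070.

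For arm ratios with a library left out, miR-433 ran from −1.57 to 0.024 in virgin *Zeb1 200M* against WT. In virgin *Zeb1 200M* against *Zeb1 200H*, miR-136 ran from −0.19 to 0.037, miR-431 from −0.090 to 0.058 and miR-434 from −0.029 to 0.0037. The 1 hairpin of the cluster called in breeding-trial *Zeb1 200M* against WT became 0 to 3. In breeding-trial *Zeb1 200H* against WT miR-434 ran from −0.21 to 0.079 and was 0.022 with the replicate block. In breeding-trial *Zeb1 200M* against *Zeb1 200H*, miR-136 ran from −0.071 to 0.12 and miR-433 from −0.24 to 0.84.

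For the difference between cohorts in *Zeb1 200M*, a fit of only the 2 genotypes gave −0.038 for miR-434-5p, and without virgin WT replicate 1 the values were −0.0018 for miR-127-3p, 0.30 for miR-136-3p and 0.17 for miR-434-3p. In *Zeb1 200H* it was −0.061 for miR-136-5p without that library.

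Leaving out virgin WT replicate 1 for the other lists was chosen after seeing the data. Of the miR-379 to miR-410 list it gave 16 calls in place of 2 in virgin *Zeb1 200M* against WT and 18 in place of 2 in virgin *Zeb1 200H* against WT.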
